A study of Homo sapiens with 4 samples.

Results

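STC1 and SIRPB1 are genes whose transcripts were more abundant in T24 cells given miR-146a-5p. The longest annotated coding transcript of each carries a perfect match to that microRNA's seed. STC2 and SIRPA are their closest relatives. The genes were taken by name from a deposited table of 60623 genes, which gave 4 members, each with 1 entry. T24 is an established cell line grown from a human bladder carcinoma. The study compared cells transfected with a scramble control, labelled PCV (2 libraries), with cells labelled as overexpressing miR-146a-5p, P146 (2 libraries), which the study's description says received a mimic. The labels name no clone, dose, time or separate culture for the libraries of a group, so every spread and p-value below measures the difference between these libraries, which may be technical. STC1 and SIRPB1 were chosen because they rose in this same comparison and hold seed matches, so their increases are described and not tested. STC2 and SIRPA were added as family controls, with results of these data known.

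A microRNA guides the silencing complex to messenger RNAs mainly through its seed, positions 2 to 8 from its 5′ end, and a matching site in the 3′ UTR usually lowers the transcript. Stanniocalcins are secreted glycoprotein hormones, first known for calcium and phosphate control in fish, that bind and inhibit the pappalysin proteases which release IGF from its binding proteins. STC1 is induced by low oxygen and by inflammatory signals in many cells, and STC2 also responds to endoplasmic reticulum stress. Signal regulatory proteins (SIRPs) are immunoglobulin-like receptors best known on myeloid cells. SIRPA binds CD47 and recruits the phosphatases PTPN6 and PTPN11 through its cytoplasmic tail, whereas SIRPB1 has a short tail and signals through the adaptor DAP12, the product of TYROBP.

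The mature miR-146a-5p sequence and the sites in question are printed here because the members were chosen for pairing between them. In the microRNA, from RefSeq (GRCh38.p14, chromosome 5, 160485372 to 160485393, plus strand), capitals mark the seed. In the sites, from GENCODE release 29 transcripts (GRCh38), capitals mark the match, and each line ends where the match ends.
hsa-miR-146a-5p: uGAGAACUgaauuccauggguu
SIRPB1 8-mer: taagatctcagtgAGTTCTCA
SIRPA 7-mer: ctggctgggactgacttggccatGTTCTCA
IRAK1 upstream 8-mer: atcccccaaatccggaagtcaaAGTTCTCA
IRAK1 downstream 8-mer: agtcaaagttctcatggtcagaAGTTCTCA
IRAK1, a kinase of interleukin-1 receptor signalling and a textbook target of this microRNA, is shown as a reference for a site in a transcript that fell.

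The SIRPB1 gene (ENSG00000101307) lies on chromosome 20 from 1563521 to 1620061 on the minus strand. The match shown is in its 3′ UTR, from 1563793 to 1563800. In IRAK1 (ENSG00000184216, chromosome X, minus strand) 8 bases separate the 2 matches, which run from 154011812 to 154011819 and from 154011796 to 154011803. STC1 (ENSG00000159167, chromosome 8, minus strand) holds 1 8-mer, at bases 2386 to 2393 of a 3′ UTR of 2855 bases. STC2 (ENSG00000113739, chromosome 5, 173314713 to 173329503, minus strand) has no match of 7 or 8 bases in a 3′ UTR of 3134 bases. SIRPA (ENSG00000198053, chromosome 20, 1894167 to 1940592, plus strand) has no 8-mer and 1 7-mer, which pairs with positions 2 to 7 and is followed by A, from 1938662 to 1938668. The longest coding transcript of each riser therefore carries at least 1 8-mer, and neither relative carries one.

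The 8-mer sites described for the risers lay at a similar place in the UTR. The STC1 site began 83.6% of the way along the 3′ UTR, and the SIRPB1 site began at 85.9%. The IRAK1 sites began at 2.94% and 4.12%, close to the stop codon. Across the 632 8-mer sites in the longest coding transcripts of tested genes the median was 48.4%. Bases A and T made up 66.2% of the 30 bases on each side of the STC1 match together with the match itself, and 60.3% around the SIRPB1 match, against a median of 58.8% over all 8-mer sites. The energy of pairing between the whole microRNA and a window of 30 bases ending at the match, computed with RNAduplex, was -14.1 kcal/mol for STC1 and -14.0 kcal/mol for SIRPB1. It was -18.0 and -20.9 kcal/mol for IRAK1, with a median of -15.2 kcal/mol over all 8-mer sites and -19.7 to -11.9 kcal/mol between their 10th and 90th percentiles. The energy is that of the best pairing anywhere in a window, not of the match alone. The window of the downstream IRAK1 site also holds the upstream match. CARD10, an adaptor of NF-kB signalling that fell in these cells, holds 1 8-mer and 1 7-mer. The window of its 8-mer had -13.3 kcal/mol, weaker than the windows of these riser sites. These are features of sequence alone and were not set against the response by any test.

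**Figure D1:**
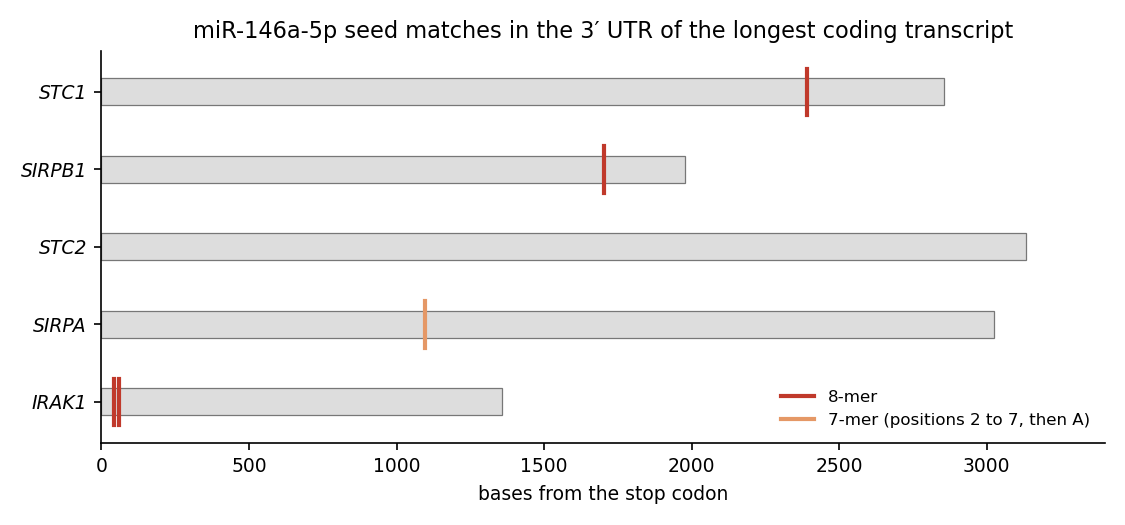
Horizontal bars give the 3′ UTR of the longest coding transcript in bases from the stop codon, and vertical marks give seed matches (red, 8-mer; orange, 7-mer), with 1 of the SIRPB1 matches drawn. The marks drawn for STC1 and SIRPB1 lie near the far end of the UTR, those of IRAK1 lie next to the stop codon, and STC2 has none.

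STC1, the stanniocalcin that most tissues induce on demand, was the rarer of the family in every library. Its deposited TPM (a level scaled for transcript length and library size) was 1.91 and 1.17 in the scramble libraries and 7.57 and 7.29 with miR-146a-5p. Both miR-146a-5p libraries lay well above both scramble libraries. In such bulk RNA a change in the number of cells that make a transcript and a change in the amount per cell cannot be told apart. The mean went from 1.54 ± 0.523 to 7.43 ± 0.198 TPM (SD, n = 2 each), a 4.82-fold difference. Estimated counts were 120 and 80 against 440 and 378, or 4.44 ± 1.31 and 19.5 ± 1.27 CPM (counts scaled to the library total, not to length). In the authors' deposited table, which set the choice of this gene, its log2 fold change is 2.11 with a DESeq2 adjusted p of 0.000948. The size of the difference depends on which scramble library is used, because these differ by 0.60 on the log2 CPM scale, with scramble 2 lower.

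STC2 was the abundant member, at 103 and 107 TPM in scramble cells and 129.96 and 136 TPM with miR-146a-5p. The groups did not overlap, as for 18% of all tested genes in this direction by CPM, but the difference was small, 1.26-fold in TPM. Its log2 fold change was 0.29 ± 0.16 (SE) and did not pass edgeR's quasi-likelihood test (adjusted p = 0.970) or DESeq2 (adjusted p = 1.00). Without scramble replicate 2 edgeR called it higher, at 0.43 with an adjusted p of 2.33e-05. That fit takes the spread of the single scramble library from the miR-146a-5p pair and calls 10.1% of all tested genes higher. STC1 amounted to 1.85 and 1.10 TPM per 100 TPM of STC2 in the scramble libraries and to 5.82 and 5.38 with miR-146a-5p. The ratio within a library does not depend on how libraries are scaled, and it was 3.81-fold higher with miR-146a-5p. STC2 remained the main stanniocalcin transcript in all 4 libraries.

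SIRPB1, the DAP12-linked receptor, was nearly equal in the 2 scramble libraries, at 8.19 and 8.31 TPM. With miR-146a-5p it was at 18.6 and 19.2 TPM, above both scramble values. The means were 8.25 ± 0.0849 and 18.9 ± 0.431 TPM (SD, n = 2 each), a 2.29-fold difference. Estimated counts were 247 and 247 against 547 and 553. The authors' deposited table gives it a log2 fold change of 1.25 and a DESeq2 adjusted p of 0.0404, close to the threshold of 0.05 that made it a riser. Among upregulated genes with an 8-mer it was the last inside that threshold by the DESeq2 test computed here (0.0401). The next, PTGS2, the inducible cyclooxygenase, was at 0.282.

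SIRPA, the inhibitory relative, was at 20.8 and 26.6 TPM in scramble cells and 26.6 and 27.9 TPM with miR-146a-5p. Scramble 2 lay level with the lower miR-146a-5p library, so the groups overlapped. The difference, 0.15 ± 0.26 (SE) on the log2 scale, did not pass edgeR (adjusted p = 0.970) or DESeq2 (adjusted p = 1.00). The sign depended on the scramble library, at -0.10 without scramble replicate 1 (edgeR adjusted p = 0.321) and 0.46 without scramble replicate 2 (adjusted p = 9.13e-06). SIRPB1 amounted to 39.3 and 31.3 TPM per 100 TPM of SIRPA in the scramble libraries and to 69.9 and 68.9 with miR-146a-5p, a 1.97-fold difference. The order of TPM levels was STC2, SIRPA, SIRPB1 and STC1 in each library, and no neighbours in that order overlapped over the 4 libraries.

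**Figure D2:**
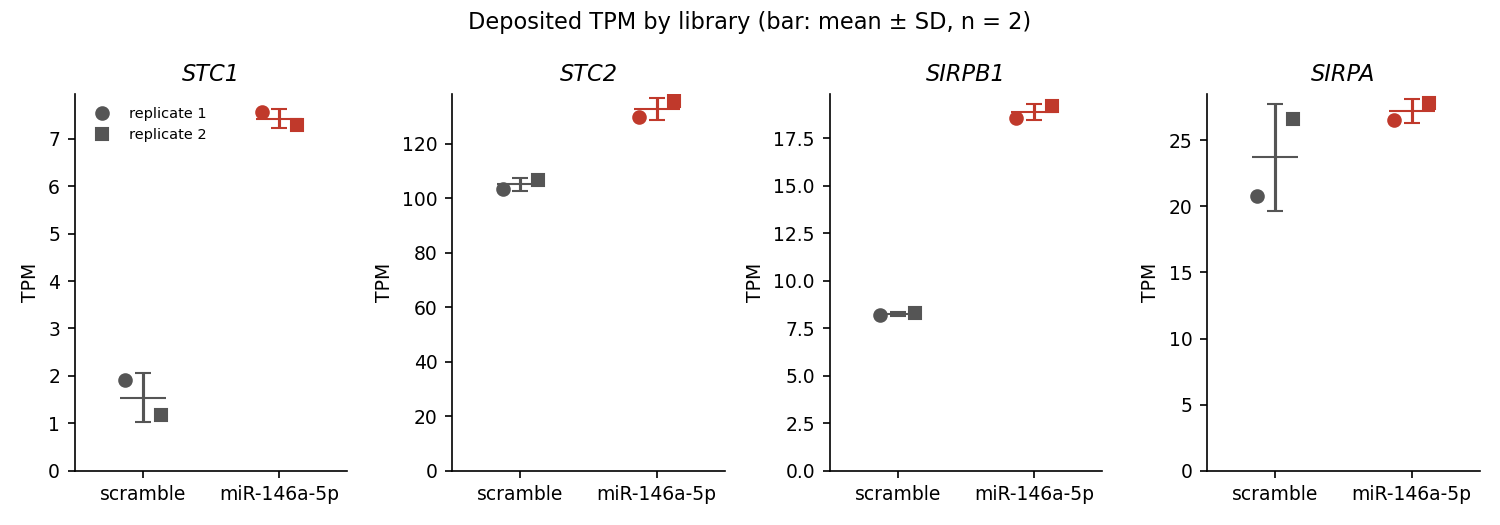
Deposited TPM of each gene (vertical axis, from 0) in scramble (grey) and miR-146a-5p (red) libraries, circles for replicate 1 and squares for replicate 2, with mean and SD. STC1 and SIRPB1 are higher in both miR-146a-5p libraries, STC2 is slightly higher in both, and the SIRPA groups overlap at 26.6 TPM.

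The authors' table called 2 of the 4 members higher, STC1 and SIRPB1. Over its 25812 tested genes 0.17% were called higher and 0.031% lower, and since that comparison chose the members nothing is read from their share. In the main test, edgeR on the same counts, 0 of 14810 genes were called, with 549 at an unadjusted p under 0.05, while DESeq2 called 52. Even IRAK1 did not pass edgeR, at an adjusted p of 0.728, the lowest value reached by any gene. Failing edgeR therefore does not set STC2, SIRPA or any other gene here apart. Total estimated counts were between 20290055 and 22774090 per library. The scramble libraries were less alike (Pearson r = 0.925 across genes) than the miR-146a-5p libraries (r = 0.989), and their difference followed the GC content of transcripts. In the fifth of genes with the lowest GC content the median of scramble 2 minus scramble 1 was -1.53 on the log2 CPM scale, and in the highest it was 0.52. The 4 members had a GC content of 43.8% (STC1), 49.3% (SIRPB1), 51.7% (STC2) and 54.6% (SIRPA). Their own scramble 2 minus scramble 1 differences were -0.60, -0.02, 0.23 and 0.55 in the same order. With GC and length trends removed, log2 fold changes were 2.02, 1.29, 0.37 and 0.28, again in that order.

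STC1 and SIRPB1 were 2 of few genes with an 8-mer that were called in either direction. Of 12345 tested genes with an annotated 3′ UTR, 591 (4.79%) held an 8-mer in it, and their median log2 fold change was 0.02, beside -0.00 for all tested genes. Among these 591 genes DESeq2 called 2 higher, STC1 and SIRPB1, and 3 lower, IRAK1, CARD10 and TIMM17B. Over all 14810 genes it called 0.297% higher and 0.054% lower. Both miR-146a-5p libraries lay above both scramble libraries for 97 of the 591, 16.4%, and below both for 143, 24.2%, against 18% of all tested genes in each direction. Only 38 tested genes held 2 or more 8-mers, and both SIRPB1 and IRAK1 were among them. Among the 559 carriers with a mean of at least 1 CPM, STC1 had the highest log2 fold change and SIRPB1 the seventh highest, while IRAK1 had the lowest. STC1 and SIRPB1 were chosen for rising, so nothing is read from their calls or their places in this order.

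The carriers between STC1 and SIRPB1 in that order differed in how far their libraries separated. PTGS2 was second, at 1.83 and 0.834 CPM in scramble and 4.92 and 5.82 CPM with miR-146a-5p. KYNU, an enzyme of tryptophan breakdown, came next, at 1.47 and 0.834 against 3.57 and 3.20 CPM. MYBL1, a transcription factor, followed at 25.1 and 6.54 against 37.1 and 42.8 CPM, with the scramble libraries far apart. ARL6 and RGS5, the last before SIRPB1, also had scramble 2 far below scramble 1, at 6.34 and 1.54 CPM and at 1.30 and 0.351 CPM. The scramble values of SIRPB1 nearly coincide. IRAK1, at the other end, was at 498 and 716 CPM in scramble and at 108 and 109 CPM with miR-146a-5p, far lower in both libraries labelled with the microRNA.

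**Figure D3:**
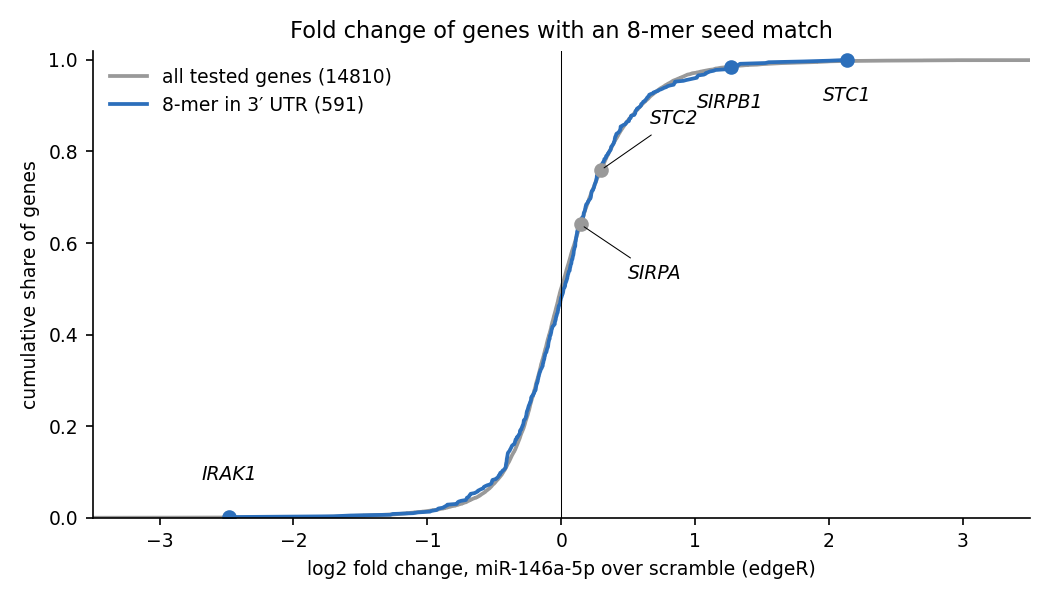
Cumulative share of genes (vertical axis) by log2 fold change of miR-146a-5p over scramble (horizontal axis) for all 14810 tested genes (grey) and the 591 with an 8-mer (blue). The curves nearly coincide, with STC1 and SIRPB1 at the upper end of the blue curve and IRAK1 at its lower end.

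The other genes called higher in the authors' deposited table that held a match, FN1, INAVA, GOLGA7B, PMEPA1 and GRAMD2B, had 7-mers only. FN1, fibronectin, has 1 and was at 991 and 1239 CPM in scramble and 4154 and 4163 CPM with miR-146a-5p. PMEPA1, which restrains signalling by TGF-beta, has 3 and was at 15.9 and 21.3 against 55.9 and 52.4 CPM. INAVA, an adaptor of innate immune signalling, also has 3, and GOLGA7B and GRAMD2B have 1 each. The miR-146a-5p libraries lay above the scramble libraries for every one of these, a separation that their calling favours. SERPINB2 and ANKRD33B, called lower, also held 7-mers only. Of 2594 tested genes with any match DESeq2 called 7 higher and 5 lower. Of 9751 with a 3′ UTR and no match it called 34 higher and 1 lower. STC1 and SIRPB1 were the 2 called risers with the longest kind of match, and they were chosen for rising and for holding matches.

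Whether a transcript carries the match depends on the isoform. GENCODE lists 2 coding transcripts of STC1, of 3883 and 1748 bases, and the 8-mer is in the longer one alone. It lists 12 coding transcripts of SIRPB1, and both 8-mers are in 1 of them, the longest, of 3241 bases. The next longest has 2207 bases and the shortest 472. The deposited gene counts do not separate these, but the ratio of a gene's count to its TPM reflects the average transcript length that the authors' quantification used. Scaled so that 267 long genes with 1 annotated transcript have their deposited length as the median (10th to 90th percentile 0.937 to 1.05 of it), this ratio gives an average length for each member.

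For STC1 that average was 3752 and 3548 bases in the scramble libraries and 3446 and 3304 with miR-146a-5p, 85.1% to 96.6% of the transcript with the 8-mer. The miR-146a-5p values were the lower ones, and no test was made of this. For SIRPB1 it was 1798 and 1543 bases in scramble and 1746 and 1837 bases with miR-146a-5p, or 47.6% to 56.7% of the transcript with the 8-mers. The SIRPB1 average was thus below the next longest transcript in all 4 libraries, with overlapping groups. SIRPA averaged 3975 to 4040 bases, among its annotated lengths, and STC2 averaged 3616 to 3785 bases, between its longest transcript and its short ones. With the authors' annotation release not given in the sources used here, these lengths are read against GENCODE release 29 only.

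**Figure D4:**
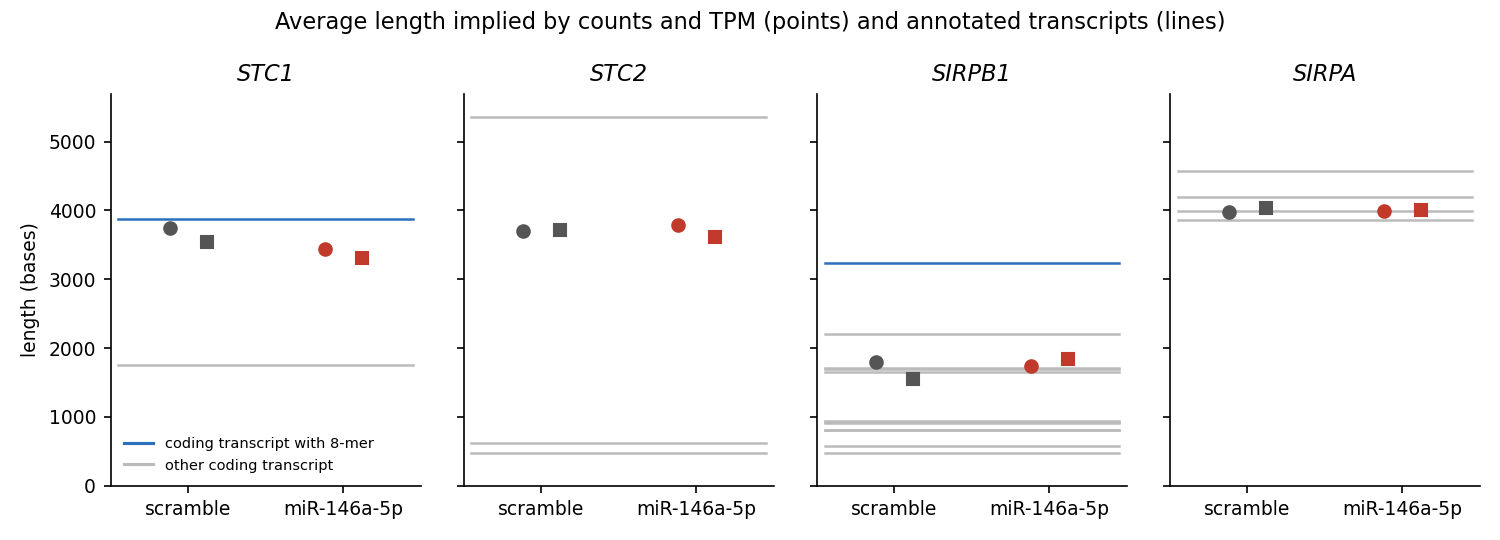
Points give the average transcript length in bases implied by counts and TPM in each library (grey, scramble; red, miR-146a-5p; circles, replicate 1; squares, replicate 2), and lines give annotated coding transcripts, blue where the 3′ UTR holds an 8-mer. STC1 points lie just under its blue line, and SIRPB1 points, from 1543 to 1837 bases, lie far under theirs at 3241 bases.

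SIRPB1 reads can also be shared with its neighbours. Of the 3192 stretches of 50 bases in its longest coding transcript, 576 (18.0%) occur in a transcript of another gene, 450 of them in AL049634.2, a coding gene annotated across the same stretch of chromosome 20, 88 in SIRPG and 57 in SIRPA. None of those of STC1 or STC2 do. In SIRPA 13.4% were shared, most with SIRPB1 transcripts. AL049634.2 had 29.8 and 27.3 estimated counts in scramble and 54.1 and 59.9 with miR-146a-5p, a log2 fold change of 1.11 ± 0.31 (edgeR adjusted p = 0.970). With its counts added to those of SIRPB1 the log2 fold change was 1.25. SIRPD, which lies next to SIRPB1, had 3 and 4 counts against 12.7 and 9.80 (log2 fold change 1.79 ± 0.55, edgeR adjusted p = 0.970). SIRPB2 had 2 to 5 counts in each library and SIRPG 0 to 3, so SIRPA and SIRPB1 made up nearly all SIRP counts.

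The partners that SIRPB1 is known to signal through were not detected. TYROBP, the gene of DAP12, had 0 counts in all 4 libraries, as did the kinase SYK and the related adaptor FCER1G. A count of 0 allows up to 3 counts, or 0.132 to 0.148 CPM, covering counting error only. Of 19 listed genes of DAP12 and SIRP signalling, 10 had 0 counts in every library and 5 were tested. edgeR and DESeq2 called none of the 5, beside 0% of all tested genes by edgeR and 0.297% higher and 0.054% lower by DESeq2. The median log2 fold change of the 5 was 0.29. At an edgeR unadjusted p under 0.05 there was 1, beside 549 of all 14810 tested genes. PTPN6, a phosphatase bound by SIRPA, was at 4.91 and 7.25 CPM in scramble and 10.5 and 10.2 CPM with miR-146a-5p, and PTPN11, the other, at 391 and 108 against 291 and 318 CPM. The kinase PTK2B was at 8.26 and 9.44 against 14.0 and 13.9 CPM. The scramble libraries of PTPN11 lie on either side of the miR-146a-5p pair. PTPN6 and PTK2B lay above both scramble libraries, as did 18% of all tested genes.

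The ligand side of the SIRP axis was present. CD47, the ligand of SIRPA, was at 107 and 62.2 CPM in scramble and 103 and 108 CPM with miR-146a-5p, so the groups overlapped. THBS1, thrombospondin-1, a ligand of CD47, was at 333 and 335 against 380 and 372 CPM, and QPCTL, the enzyme that modifies CD47 for SIRPA binding, at 6.97 and 9.97 against 8.22 and 8.53 CPM. The surfactant proteins SFTPA1, SFTPA2 and SFTPD had 0 counts in all libraries. Of 7 listed genes 4 were tested, with a median log2 fold change of 0.20. edgeR and DESeq2 called none (0 at an edgeR unadjusted p under 0.05). Of all tested genes edgeR called 0%, and DESeq2 called 0.297% higher and 0.054% lower.

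Myeloid cells, where SIRPB1 is best known, left little trace. Of 19 markers 8 had 0 counts in every library, among them SPI1, FCGR3A and AIF1, and 2 were tested, CD68 and CD14. CD14 was detected in every library, with 24 and 41 counts in scramble and 25 and 11 with miR-146a-5p. The list summed to 12.9 and 16.4 CPM in scramble and to 17.5 and 13.5 CPM with miR-146a-5p, most of it CD68, a lysosomal gene found in many cells, at 11.6 to 15.7 CPM. PTPRC, the leukocyte phosphatase CD45, had 0 and 0 counts against 1 and 4. Lymphocyte, fibroblast and endothelial markers summed to 1.07 to 1.62, 3.35 to 6.90 and 0.179 to 0.703 CPM per library. The fibroblast sum was higher in both miR-146a-5p libraries (5.85 and 6.90 CPM) than in either scramble library, and its part in the result was not tested. KRT7, KRT8 and KRT18, keratins of simple epithelia in general, were abundant, the lowest value being 583 CPM (KRT18). The listed uroplakins, KRT5, KRT13 and KRT20 were at or near 0. PPARG was at 40.8 and 45.4 CPM in scramble and 28.5 and 28.3 CPM with miR-146a-5p. KRT19 was at 31.8 and 42.5 against 15.8 and 14.5 CPM, and ELF3 at 0.938 and 1.32 against 7.15 and 7.64 CPM. Of 16 urothelial and epithelial markers 8 were tested, and DESeq2 called 1 higher, ELF3, an epithelial transcription factor, and 0 lower, beside 0.297% and 0.054% of all tested genes. Of these 8, 3 lay above both scramble libraries (ELF3, GATA3 and EPCAM) and 3 below both (KRT18, KRT19 and PPARG). The share of all tested genes was 18% in each direction. KRT19 had a log2 fold change of -1.30 (DESeq2 adjusted p = 0.0681), KRT18 -0.61 and PPARG -0.60. KRT5, KRT13 and UPK3A had 0 counts in every library, UPK2 had 0 to 3, UPK1A and CDH1 0 to 2, and UPK1B and KRT20 0 to 1. The labelled bladder origin is thus not shown by the listed uroplakins, KRT5, KRT13 or KRT20, while PPARG, ELF3 and KRT19 were detected.

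Around the stanniocalcins, no IGF-binding protein was called by edgeR or DESeq2. Of 14 genes of the axis 10 were tested, with a median log2 fold change of 0.11. DESeq2 called 1 higher, STC1 itself, and 0 lower, beside 0.297% and 0.054% of all tested genes. Among the 10 tested genes both miR-146a-5p libraries lay above both scramble libraries for 4 (STC1, STC2, IGF1R and IGFBP4) and below both for 4 (IGFBP1, IGFBP3, IGFBP5 and IGF2R), beside 18% of all tested genes in each direction. The first 4 include STC1, which was chosen for rising. PAPPA, a protease that stanniocalcins inhibit, was at 1.21 and 0.483 CPM in scramble and 0.975 and 1.03 CPM with miR-146a-5p, and PAPPA2 had 5 to 11 counts. IGFBP4, a substrate of PAPPA, was at 148 and 230 against 231 and 231 CPM, where scramble 2 equals the miR-146a-5p level to within 1 CPM. IGFBP3, the main IGF carrier of blood, was at 36.1 and 52.2 against 26.7 and 26.6 CPM, and IGFBP1 at 2.59 and 3.34 against 1.39 and 1.38 CPM. The receptor IGF1R was at 23.2 and 22.7 against 34.3 and 33.2 CPM. IGFBP1, IGFBP3, IGFBP5 and IGF1R each had an edgeR p under 0.05 before adjustment, as did 549 of all 14810 tested genes. None passed after adjustment.

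**Figure D5:**
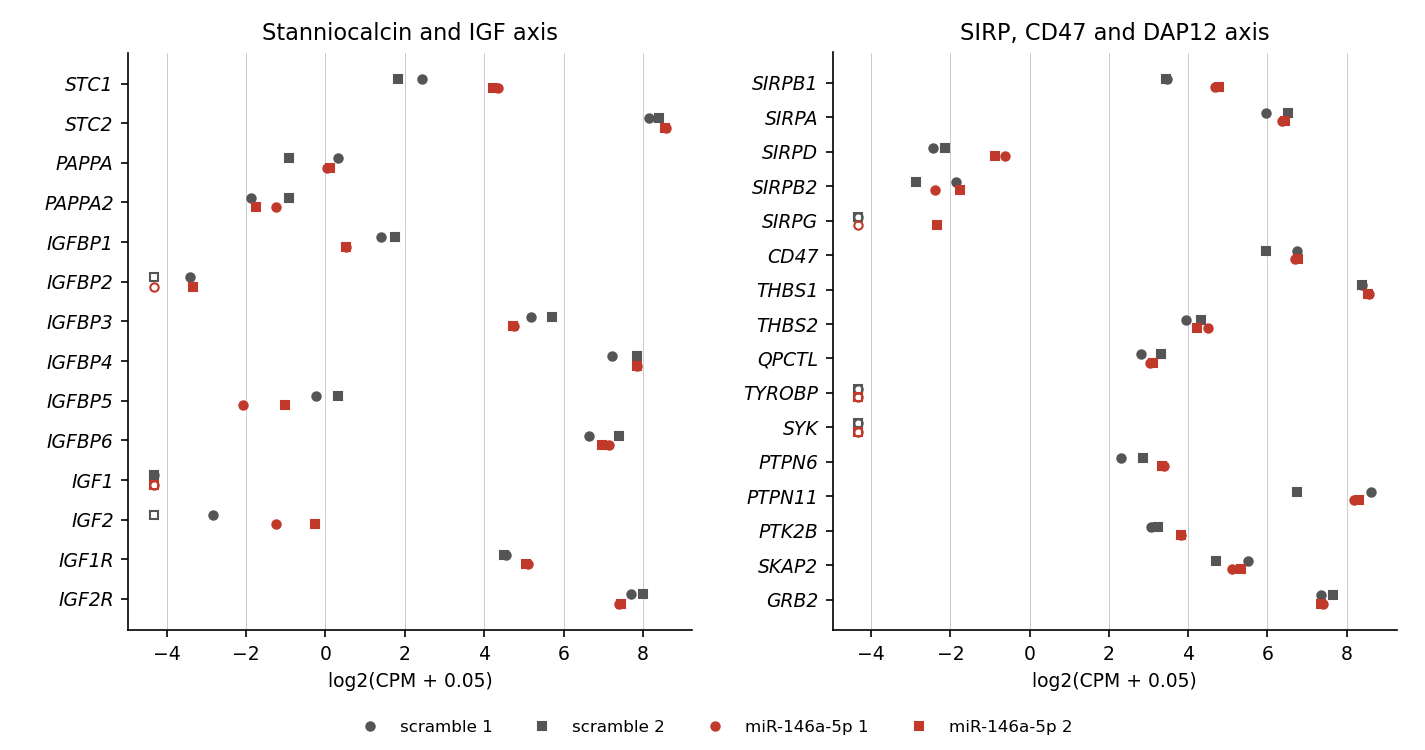
Levels as log2(CPM + 0.05) in each library (grey, scramble; red, miR-146a-5p; circles, replicate 1; squares, replicate 2; open, 0 counts) for the stanniocalcin and IGF axis (left) and the SIRP, CD47 and DAP12 axis (right). TYROBP and SYK are at 0 in all 4 libraries, while SIRPB1, SIRPA and CD47 are well above.

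Genes known to respond to low oxygen, a classic inducer of STC1, were mostly higher in the same libraries. Whether this bears on STC1 was not tested. All 22 listed genes were tested, 18 lay above both scramble libraries (18% of all tested genes did) and 1, HK2, below both, with a median log2 fold change of 0.59. edgeR and DESeq2 called none of them, with 7 at an edgeR unadjusted p under 0.05, beside 549 of all 14810 tested genes. Of all tested genes edgeR called 0%, and DESeq2 called 0.297% higher and 0.054% lower. Scramble 2 lay far below scramble 1 for listed genes such as KDM3A and BNIP3L, and above it for others such as NDRG1 and VEGFA. CA9, a carbonic anhydrase, was at 0.491 and 1.01 CPM in scramble and 3.67 and 3.40 CPM with miR-146a-5p, and NDRG1 at 68.8 and 85.9 against 141 and 131 CPM. VEGFA, the vascular growth factor, was at 57.8 and 71.9 against 113 and 108 CPM. Of 16 genes of the ATF4 and unfolded protein response, which regulate STC2, 5 lay above both scramble libraries and none below both, with a median of 0.20. Neither test called one, and 0 had an edgeR unadjusted p under 0.05. ATF4 was at 391 and 475 against 474 and 460 CPM, and HSPA5, the main chaperone of the endoplasmic reticulum, at 791 and 951 against 926 and 926 CPM.

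The genes most like STC1 and SIRPB1 across the 4 libraries were chosen by the smallest root mean square difference of centred log2 CPM, among 13266 tested genes with a mean of at least 1 CPM. For STC1 they were CMPK2, a mitochondrial nucleotide kinase (difference 0.118), NFKBIZ, a nuclear partner of NF-kB (0.161), LAMP3, a lysosomal membrane protein (0.203), INAVA (0.215) and PTGS2 (0.216). NFKBIZ was at 17.2 and 14.3 CPM in scramble and 79.5 and 80.4 CPM with miR-146a-5p. PTGS2 was the 1 gene among these 5 that also holds an 8-mer. For SIRPB1 they were C5orf15 (0.0128), TMOD1 (0.0266), AC079949.2 (0.0485), KCTD20 (0.0670) and TNFAIP3 (0.0706), the ubiquitin-editing brake on NF-kB. C5orf15 was at 60.0 and 57.6 against 136 and 147 CPM, and TNFAIP3 at 19.7 and 22.1 against 49.9 and 52.9 CPM. No 8-mer was found in the 4 of these with an annotated 3′ UTR. With 4 libraries many genes can look alike, so this is a description of these libraries only.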

How the data were processed

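RNA from 2 scramble and 2 miR-146a-5p libraries of T24 cells was read from 1 table. Per the submitters' processing notes, cutadapt 1.9.1, HISAT2 2.0.1, HTSeq 0.6.1, DESeq2 and hg19 were used, with no role given. The authors deposited an estimated count per gene and library, of which 34.3% were not whole in genes detected everywhere, and a TPM per gene and library. The deposited ratio (fold change), its log2 value, and the p-value and adjusted p-value are the authors' own. A tool that yields fractional counts is among the steps not given in the sources used here.

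Counts were rounded and tested with edgeR 4.0.16 (R 4.3.3) quasi-likelihood, TMM factors, group as the only term and filterByExpr (minimum count 10, total 15), which kept 14810 genes. Benjamini-Hochberg adjustment ran over all of them, with a threshold of 0.05, two-sided. DESeq2 1.42.0 and limma 3.58.1 (voom) were alternatives, with others in the closing section. SEs were derived from the F statistic, and log2 CPM used a prior count of 2. Fits were tested on simulated counts with the same spread in every library and no GC trend. That setting lacks the GC-linked scramble difference, so it does not show how the fits behave on these libraries. The labels do not state whether same-numbered libraries are paired, so the main fit used no pairing. The correlation of same-numbered deviations was -0.15, which cannot decide this with 2 libraries per group.

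Each gene's longest coding transcript in GENCODE release 29 (GRCh38) was searched for seed matches. In that release 58457 deposited identifiers were found. The matches are AGTTCTCA (8-mer), AGTTCTC (7-mer, positions 2 to 8) and GTTCTCA (7-mer, positions 2 to 7, then A). Duplex energies came from ViennaRNA 2.7.2. For SIRPB1, 1 site is described and the other is not reported here. Members and lists were chosen with earlier results of these data known. Named genes are the members, the 5 genes most like each riser, called risers with a match, IRAK1, list members with the smallest p or a known role, and carriers and sites named as neighbours after their values were seen.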

Additional observations from a re-analysis of the deposited data

How the results depend on the processing

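The log2 fold changes of STC1 and SIRPB1 kept their sign under every alternative run, but both were chosen for rising in these libraries. Both miR-146a-5p libraries lay above both scramble libraries for each, so leaving out 1 library could not test the sign. STC1 was 2.14 (1.87 to 2.47 with 1 library left out), and SIRPB1 1.26 (1.19 to 1.32), or 1.18 from TPM. STC2 was 0.29 (0.18 to 0.43), and edgeR and DESeq2 called it without scramble replicate 2 (0.43 and 0.42). SIRPA was 0.15 (-0.11 to 0.46), reversed without scramble replicate 1 (-0.10 by edgeR, -0.11 by DESeq2) and called higher without scramble replicate 2 (0.46 and 0.45). The log2 change of STC1 relative to STC2 was 1.93 (1.60 to 2.35), and that of SIRPB1 relative to SIRPA 0.98 (0.82 to 1.15). The cause of these shifts was not tested.

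edgeR called 0 genes, DESeq2 52, and edgeR with 1 library left out between 8 and 8421 (8421 and 3343 without scramble replicates 1 and 2, 12 and 8 without miR-146a-5p replicates 1 and 2). DESeq2 then called 5349 and 1107, and 2 in each of the last cases. A fit with the replicate number as a block called 5 genes, and a crossed pairing, added after seeing the data, called 0. All 4 genes kept their sign under the block. A search for 8-mer matches only gave 591 genes in place of 2594. Few counts limit SIRPD, SIRPB2, SIRPG and the marker lists, and 2 libraries per group limit every spread.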
